A study of Mus musculus with 3 samples.

Results

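The lacrimal gland makes the watery part of tears in acinar cells and passes it through ducts to the eye. Genes for transcription factors known from secretory acini or from ducts were followed here by symbol. They are Bhlha15, Etv1, Spdef, Creb3l1, Elf3, Elf5, Ehf, Sox9, Tfcp2l1 and Esrrg, 10 of the 32285 genes in the count matrices. Each symbol matched 1 gene in every library. The libraries came from mouse lacrimal glands by single-nucleus RNA sequencing with a droplet 3' kit, 1 library per group. The control library was from normal glands, the scopolamine library from a dry eye model made with scopolamine, a blocker of muscarinic acetylcholine receptors, together with dry stress, and the tamsulosin library from the same model treated with tamsulosin, a blocker of alpha-1 adrenergic receptors. The labels do not give strain, sex, age or the number of animals, and their protocol describes a sort of fluorescent nuclei whose use for these libraries could not be settled. A single library stood for each group, so groups were compared without a test. Intervals are 95% exact intervals for counting error only.

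Secretory acinar cells carry a large endoplasmic reticulum and many secretory granules. BHLHA15 (MIST1) scales up that machinery in several exocrine glands, and CREB3L1 and SPDEF belong to programmes of secretory transport and mucous secretion. Factors of the ELF/EHF family of ETS proteins, SOX9 and TFCP2L1 are known from ductal and other simple epithelia, where TFCP2L1 takes part in making transporting ducts. ESRRG, an orphan nuclear receptor, regulates genes of mitochondrial energy supply and ion transport.

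The genes lie on 6 chromosomes of the mm10 assembly, and 3 of the 10 are on chromosome 1. Tfcp2l1 spans chr1:118627945-118685168 on the plus strand, Elf3 chr1:135253575-135258568 on the minus strand and Esrrg chr1:187608791-188214885 on the plus strand. Creb3l1 is at chr2:91982328-92024502 on the minus strand. Elf5 (chr2:103411688-103450989, plus strand) and Ehf (chr2:103263433-103303278, minus strand) are neighbours, 108409 bases apart with 0 protein-coding genes between them. Bhlha15 is at chr5:144190286-144194441 and Sox9 at chr11:112782224-112787760, both on the plus strand. Etv1 spans chr12:38779380-38870484 on the plus strand and Spdef chr17:27714352-27728955 on the minus strand. Noncoding genes on the opposite strand overlap Elf3 and Esrrg, and the counting rule is not given in the sources used here. The antisense gene over Elf3, Gm26642, held at most 33 UMIs in acinar-like or duct-like nuclei of any library.

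The bases just upstream of the start are shown for the 4 factors with 1 start site in the RefSeq table and at least 100 bases outside the gene, since they fall on both sides of the comparison below: Bhlha15 and Spdef were acinar-leaning, Elf3 and Tfcp2l1 duct-leaning. Sequences are RefSeq's (GRCm38.p6), written on each gene's own strand, and capitals mark a motif match.
Bhlha15 (chr5:144190036-144190285, plus strand): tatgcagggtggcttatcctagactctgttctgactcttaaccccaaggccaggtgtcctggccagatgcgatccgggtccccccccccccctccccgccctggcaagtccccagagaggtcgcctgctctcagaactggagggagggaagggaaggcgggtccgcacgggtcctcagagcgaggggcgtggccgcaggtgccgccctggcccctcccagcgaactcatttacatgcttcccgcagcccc
Spdef (chr17:27728956-27729201, minus strand): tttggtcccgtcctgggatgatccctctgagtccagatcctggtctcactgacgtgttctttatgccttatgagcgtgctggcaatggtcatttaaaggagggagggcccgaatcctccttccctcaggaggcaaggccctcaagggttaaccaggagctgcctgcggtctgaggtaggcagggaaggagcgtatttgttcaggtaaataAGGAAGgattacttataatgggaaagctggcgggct
Elf3 (chr1:135258569-135258722, minus strand): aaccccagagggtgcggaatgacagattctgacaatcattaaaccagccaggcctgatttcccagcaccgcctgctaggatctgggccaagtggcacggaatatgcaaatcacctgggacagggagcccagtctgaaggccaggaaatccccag
Tfcp2l1 (chr1:118627695-118627944, plus strand): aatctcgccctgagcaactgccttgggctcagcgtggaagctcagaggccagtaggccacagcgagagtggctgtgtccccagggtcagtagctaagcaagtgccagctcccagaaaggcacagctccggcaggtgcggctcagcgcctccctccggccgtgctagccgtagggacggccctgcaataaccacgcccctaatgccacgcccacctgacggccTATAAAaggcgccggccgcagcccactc
The windows were searched on both strands for 7 motifs, and no matches overlapped. They were an ETS core (AGGAAG), a longer ETS site (CCGGAAG), 2 E-boxes (CAGCTG and CATATG), the estrogen-related receptor motif (AAGGTCA), a spaced TFCP2L1 pair of CCAG and a TATA box (TATAAA). Spdef held 1 ETS core, a motif found in 29.5% of 32851 mouse promoters of 250 bases. Tfcp2l1 held 1 TATA box, found in 12.4%. Bhlha15 and Elf3 held none of the 7. A match describes letters only. Creb3l1, Ehf and Sox9 had no entry in the table.

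After filtering and removal of doublets, 6780 nuclei of the control, 9205 of the scopolamine and 10864 of the tamsulosin library were kept, with a median of 2318, 1732 and 3361 unique molecular identifiers (UMIs, counted RNA molecules) each. Nuclei were clustered and clusters named from marker genes, with the 10 factors left out of both steps. Acinar-like nuclei numbered 5171, 6065 and 2557 in the control, scopolamine and tamsulosin libraries, and duct-like nuclei 397, 661 and 3431. The acinar-like nuclei came mostly from different clusters in each library: 1, 8 and 16 in control, 0, 5, 17 and 4 in scopolamine, and 4 and 10 in tamsulosin. Clusters of low complexity, held out of both classes, took 42, 504 and 2944 nuclei. The median acinar marker (26 genes) was only 1.24, 1.52 and 1.45 times as high in acinar-like as in macrophage-like nuclei, whereas the median duct marker (23 genes) was 4.82, 5.06 and 3.76 times as high in duct-like as in macrophage-like nuclei. Acinar markers summed to 63103, 193588 and 290837 CPM (counts per 1000000) in macrophage-like nuclei, against 70710, 224411 and 276248 in acinar-like ones. Macrophage-like levels are therefore given for each factor below. Between 22 and 35 barcodes were shared by each pair of libraries.

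Levels are UMIs summed over a class and scaled to CPM. A factor was counted as higher where the ratio of CPM was at least 1.5-fold and its interval lay beyond 1. Bhlha15, Etv1, Spdef, Creb3l1 and Esrrg, 5 of 10, were higher in acinar-like than in duct-like nuclei in every library. The share of all genes counted on this side was 15% in control, 12.0% in scopolamine and 16.8% in tamsulosin. Tfcp2l1, Elf3 and Ehf were higher in duct-like nuclei in every library and Sox9 in the tamsulosin library, 3, 3 and 4 of 10, against 16.8%, 20.7% and 21.7% of all genes. The Elf3 call in scopolamine was lost when only duct-like clusters with a duct marker among their 10 top genes were used. Elf5 passed in neither direction. Duct-like nuclei came from different clusters in each library, so these ratios are not compared between libraries. The duct name also rests on the marker list as a whole. Clusters 11, 13, 18 and 24 had no duct marker among their 10 top genes, and cluster 2 had 1, Ltf. Cluster 18 held 359 of 397 control duct-like nuclei, and clusters 11 and 13 held 265 and 261 of 661 in scopolamine. Clusters 11, 13 and 18 had 1 top gene of another list (Sox10 of Schwann cells, Atp6v0d2 of ionocytes and Dmbt1 of the acinar list). Of 26 acinar markers, 20, 20 and 21 were higher in acinar-like than in duct-like nuclei. Slc12a2, Ano1, Dmbt1, Kit and Ngef went the other way in every library, and Chrm3 in control and scopolamine. Dmbt1 had 2199, 954 and 1730 CPM in duct-like and 104, 55.7 and 150 CPM in acinar-like nuclei. Against each duct-like cluster of at least 20 nuclei on its own, Tfcp2l1 was 8.28 to 31.7 times as high as in acinar-like nuclei and Etv1 2.17 to 11.8 times lower. Bhlha15, Creb3l1 and Esrrg were counted acinar-leaning against each of clusters 2, 11, 13 and 18, and Spdef against all of these but cluster 11 in scopolamine (1.08-fold). Ehf was counted duct-leaning against them except cluster 11 in tamsulosin (1.28-fold), and Elf3 except cluster 2 in scopolamine (3.14-fold, 59 nuclei). Cluster 24 differed, with Bhlha15 and Ehf not counted against it in any library. The shares of all genes are over genes of at least 20 CPM on average over the 2 classes, a level that 9 of the 10 factors reached and Elf3 did not. Of those 9, the counts to set beside the shares were 5 acinar-leaning in each library and 2, 2 and 3 duct-leaning.

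**Figure D1:**
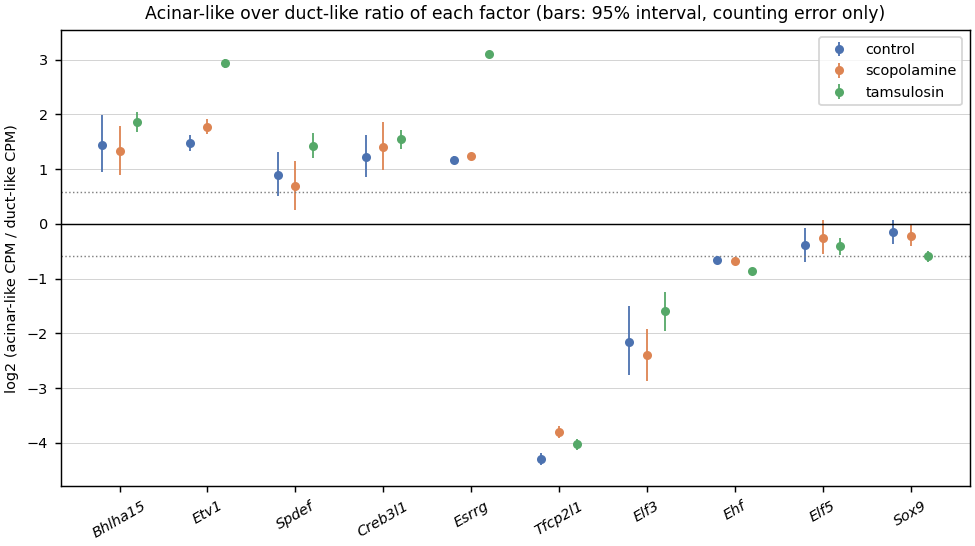
Ratio of acinar-like to duct-like CPM for each factor on a log2 axis, 1 point per library, with bars for the 95% interval and dotted lines at 1.5-fold. Etv1, Esrrg, Bhlha15, Creb3l1 and Spdef lie above the upper line, and Tfcp2l1 lies farthest below the lower one.

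Etv1, an ETS factor downstream of fibroblast growth factor signalling, stood at 600 CPM in control, 703 in scopolamine and 723 in tamsulosin acinar-like nuclei. In duct-like nuclei it stood at 216, 206 and 94.9 CPM. The ratios were 2.78 (2.51 to 3.08), 3.41 (3.11 to 3.76) and 7.61 (7.21 to 8.04). Etv1 was the factor nearest the top among all genes on the acinar side in control and scopolamine, where it ranked 83 of 6139 and 72 of 5863 genes. Macrophage-like nuclei held 426, 362 and 250 CPM of Etv1, more than duct-like nuclei did in each library. Shares of nuclei with a UMI were taken after thinning to 1000 UMIs per nucleus, which kept all acinar-like nuclei of control and tamsulosin and 5391 of 6065 in scopolamine. Etv1 was detected in 42.3%, 42.1% and 46.9% of acinar-like, 20.7%, 18.5% and 8.60% of duct-like and 31.4%, 24.6% and 10.2% of macrophage-like nuclei.

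Esrrg had 2439, 2036 and 1915 CPM in acinar-like nuclei of the control, scopolamine and tamsulosin libraries. In duct-like nuclei it had 1081, 868.1 and 222 CPM. The ratios were 2.26 (2.16 to 2.36), 2.35 (2.24 to 2.46) and 8.61 (8.32 to 8.92), with rank 53 of 5627 genes in tamsulosin. There were 6 classes with enough nuclei in every library (the 2 epithelial ones, T or NK-like, macrophage-like, fibroblast-like and myoepithelial-like), and duct-like nuclei were the lowest of them for Esrrg and for Etv1 in all 3 libraries. Macrophage-like nuclei held 1755, 993 and 621 CPM of Esrrg, and T or NK-like nuclei 2072, 1114 and 771. In the thinned nuclei 88.4%, 74.5% and 74.0% of acinar-like nuclei had an Esrrg UMI, against 60.5%, 40.2% and 15.8% of duct-like and 76.7%, 43.5% and 18.1% of macrophage-like ones. The acinar side of Esrrg did not hold in 1 group of duct-like nuclei, cluster 24, described below. Gm36388, an antisense gene within Esrrg, had 7.07, 16.0 and 21.1 CPM in acinar-like nuclei.

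Bhlha15, the secretory scaling factor, had 50.9, 54.0 and 73.1 CPM in acinar-like nuclei in the same order of libraries. Duct-like nuclei had 18.7, 21.6 and 20.1 CPM. The ratios were 2.72 (1.93 to 3.94), 2.50 (1.87 to 3.43) and 3.63 (3.20 to 4.12). Acinar-like nuclei were highest in each library, but the next class was close in control (1.24-fold, interval 0.95 to 1.63) and scopolamine (1.34-fold, 0.83 to 2.31). Only in tamsulosin did the highest class stand clear of the second, at 2.11-fold (1.43 to 3.25). Thinned acinar-like nuclei held a Bhlha15 UMI in 4.99%, 5.18% and 7.39% of cases, and macrophage-like nuclei in 4.23%, 1.41% and 1.28%. The macrophage-like levels of Bhlha15 were 41.2, 22.0 and 29.8 CPM.

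Creb3l1, which encodes a membrane-bound factor of the endoplasmic reticulum and Golgi, had 77.2, 58.3 and 69.1 CPM in acinar-like nuclei, and duct-like nuclei had 33.1, 22.0 and 23.7. Its ratios were 2.33 (1.81 to 3.07), 2.65 (1.98 to 3.61) and 2.91 (2.59 to 3.28). Spdef, an ETS factor of mucus-secreting cells, had 56.3, 33.1 and 37.7 CPM in acinar-like nuclei, and duct-like nuclei had 30.3, 20.7 and 14.0, ratios of 1.86 (1.42 to 2.48), 1.60 (1.18 to 2.22) and 2.69 (2.30 to 3.16). Spdef had the lowest ratio of the 5 in each library. With acinar-like nuclei limited to 3000 UMIs or fewer its control difference was -0.04 on the log2(CPM + 5) scale, against 0.80 over all depths, and with doublets kept it was -0.01. The control calls of Creb3l1 and Ehf were lost under 3 of 12 other settings (at least 1600 UMIs, doublets kept, Leiden resolution 2), and the Ehf call in scopolamine under 3 of 13. Macrophage-like nuclei had 43.3, 20.6 and 10.96 CPM of Spdef and 54.5, 26.0 and 25.6 CPM of Creb3l1. Acinar-like nuclei were highest for both factors, but the next class was close in control and scopolamine. For Spdef they exceeded it by 1.05-fold (0.86 to 1.31), 1.13-fold (0.78 to 1.69) and, in tamsulosin, 2.36-fold (1.34 to 4.59). For Creb3l1 the same ratios were 1.15 (0.88 to 1.55), 1.21 (0.91 to 1.65) and 1.84 (1.32 to 2.64).

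Against macrophage-like nuclei, none of the 10 factors was counted higher in acinar-like nuclei of the control library, where 3.06% of all genes were. The control ratios ran from 1.08 to 1.78. In the scopolamine library 8 were counted, against 16.9% of all genes, and in the tamsulosin library 7, against 24.6%. For Esrrg these ratios were 1.39 (1.33 to 1.45), 2.05 (1.95 to 2.16) and 3.08 (2.90 to 3.29). Tfcp2l1 had ratios of 1.27, 1.15 and 1.24 and Elf3 ratios of 1.78, 2.10 and 2.45, and all of these intervals reached below 1. In control the intervals of Sox9, Bhlha15 and Elf5 did so too.

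**Figure D2:**
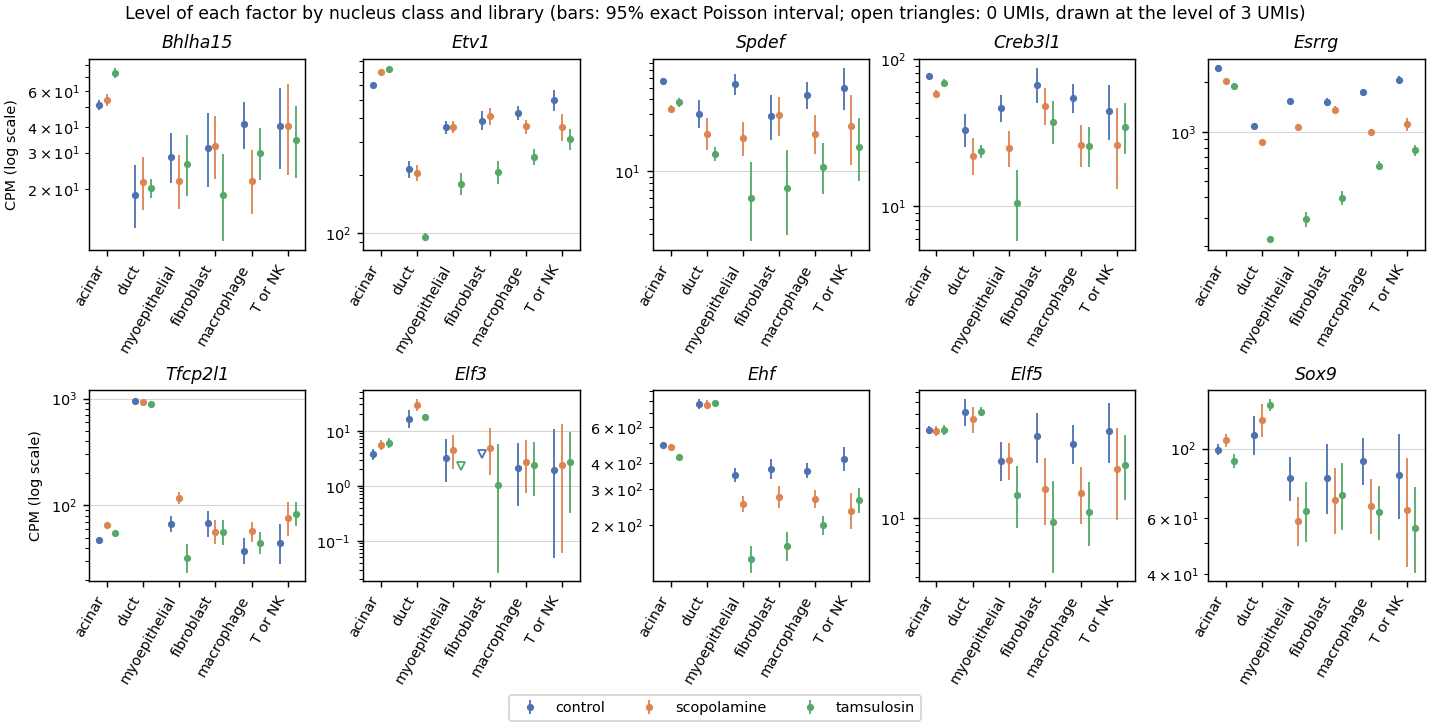
Level of each factor in CPM (log axis) in 6 classes of nuclei and 3 libraries, with bars for the 95% exact Poisson interval and open triangles, at the level of 3 UMIs, where no UMI was found. Tfcp2l1 stands between 894 and 942 CPM in duct-like nuclei and far lower in the other classes, while Esrrg and Etv1 are lowest in duct-like nuclei.

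Tfcp2l1 was the sharpest marker of either lineage among the 10. It had 942, 922 and 894 CPM in duct-like nuclei of the control, scopolamine and tamsulosin libraries and 47.7, 66.0 and 54.98 CPM in acinar-like nuclei. The ratios were 19.7 (18.3 to 21.3), 13.98 (12.995 to 15.04) and 16.3 (15.2 to 17.5), and it ranked 73, 117 and 102 from the duct-most end of all genes. The next highest class after duct-like nuclei was at least 7.79-fold lower in each library. The macrophage-like levels of Tfcp2l1 were 37.7, 57.2 and 44.5 CPM. In thinned nuclei Tfcp2l1 was detected in 51.9%, 55.1% and 52.7% of duct-like nuclei, in 5.74%, 6.55% and 6.57% of acinar-like nuclei and in 4.23%, 4.24% and 4.26% of macrophage-like nuclei. Before thinning the duct-like and acinar-like shares were 82.1%, 82.5% and 87.8% and 15.4%, 14.2% and 22.6%.

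Elf3, an epithelial ETS factor, was scarce but duct-leaning. Duct-like nuclei had 16.5, 29.4 and 18.03 CPM and acinar-like nuclei 3.72, 5.59 and 5.97 CPM, ratios of 4.44 (2.83 to 6.78), 5.26 (3.77 to 7.27) and 3.02 (2.37 to 3.87). Macrophage-like nuclei had 2.09, 2.66 and 2.44 CPM of Elf3, on only 3, 4 and 4 UMIs. Ehf, a relative of Elf3, was abundant in both lineages, with 778, 771 and 783 CPM in duct-like and 492, 482 and 428 CPM in acinar-like nuclei. Its ratios towards duct were 1.58 (1.496 to 1.67), 1.60 (1.52 to 1.69) and 1.83 (1.77 to 1.88), and the thinned shares of nuclei with an Ehf UMI were 47.1%, 49.8% and 50.6% in duct-like and 34.6%, 32.0% and 32.3% in acinar-like nuclei, against 24.8%, 17.3% and 12.6% in macrophage-like ones. Macrophage-like nuclei had 368, 268 and 200 CPM of Ehf. Duct-like Ehf was 2.12, 2.88 and 3.92 times its macrophage-like level. In all, 4, 5 and 5 factors were higher in duct-like than in macrophage-like nuclei and 4, 1 and 2 lower, where 14.6%, 19.4% and 23.6% of all genes were higher and 18.8%, 19.6% and 20.7% lower. Only 9, 9 and 8 factors reached the 20 CPM floor of these shares, Elf3 not among them. Of those, 3, 4 and 4 were higher and 4, 1 and 2 lower.

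Elf5, known from mammary alveolar and other secretory epithelia, differed little between the lineages taken as whole classes. It had 51.2, 45.9 and 51.9 CPM in duct-like and 39.1, 38.5 and 39.1 CPM in acinar-like nuclei, ratios of 1.31 (1.05 to 1.62), 1.19 (0.96 to 1.47) and 1.33 (1.19 to 1.48). Single duct-like clusters went both ways. Elf5 was counted duct-leaning against cluster 11 in scopolamine (1.70-fold) and tamsulosin (1.77-fold). Against cluster 24 in scopolamine it was counted acinar-leaning (3.28-fold, on 3 UMIs in that cluster). Macrophage-like nuclei had 31.4, 14.6 and 10.96 CPM, and Elf5 was 1.63, 3.14 and 4.73 times as high in duct-like as in macrophage-like nuclei. Sox9, a progenitor and duct factor of many glands, had 110, 123 and 138 CPM in duct-like and 99.2, 106 and 91.4 CPM in acinar-like nuclei, beside 91.4, 65.9 and 62.7 CPM in macrophage-like ones. Its ratios were 1.11 (0.96 to 1.28), 1.16 (1.02 to 1.32) and 1.51 (1.41 to 1.61), so the libraries stood on both sides of the 1.5-fold line. The tamsulosin call for Sox9 was lost under 5 of 13 other settings.

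Duct-like nuclei fell into 5 clusters whose make-up differed between libraries. Cluster 18 was all from control (359 nuclei), and cluster 2 mostly from tamsulosin (2753 nuclei, against 59 in scopolamine). Clusters 11 (265 and 367 nuclei in scopolamine and tamsulosin) and 13 (261 and 289) were shared by both dry eye libraries, and cluster 24 (21, 76 and 22) by all 3. The genes leading them were Spag17, Ltf and Sult1e1 in cluster 2, Greb1l, Mgat4a and Sema3d in 11, Kcnj16, Kcnh8 and Chst9 in 13, Alas1, Car12 and Kif26b in 18, and Slit2, Pdzrn4 and Dync1i1 in 24, leaving out gene models without a name. The class as a whole was not compared between libraries, and clusters were compared by number.

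Tfcp2l1 was high in all 5 clusters. It had 933 CPM in control cluster 18, and in scopolamine and tamsulosin nuclei 692 and 455 CPM in cluster 11, 1108 and 1168 in cluster 13 and 872 and 893 in cluster 2. In cluster 24 it had 812, 899 and 1743 CPM in control, scopolamine and tamsulosin. Cluster 13 exceeded cluster 11 by 1.60-fold in scopolamine and 2.56-fold in tamsulosin nuclei. Etv1 and Elf5 ran the other way between these clusters, with Etv1 lower in cluster 13 by factors of 2.17 and 5.24 and Elf5 by 1.69 and 2.29. Of all genes, 10.3% and 37.0% were higher and 4.57% and 4.61% lower in cluster 13. Etv1 stood at 297 and 321 CPM in cluster 11, 137 and 61.3 in cluster 13, 83.3 and 77.6 in cluster 2 and 222 in cluster 18.

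Cluster 24 was the exception for Esrrg. It held 2238, 2243 and 2920 CPM of Esrrg in control, scopolamine and tamsulosin nuclei, beside 2439, 2036 and 1915 CPM in acinar-like nuclei, together with high Tfcp2l1. Elsewhere in the duct-like class Esrrg was at 1004 CPM in cluster 18, 604 and 356 in cluster 11, 828 and 379 in cluster 13 and 329 and 170 in cluster 2. Cluster 24 exceeded the other duct-like nuclei of its own library by 2.23-fold in control, 3.27-fold (2.96 to 3.61) in scopolamine and 14.1-fold (12.4 to 16.0) in tamsulosin, where 7.11%, 12.5% and 11.2% of all genes were higher. Ehf was lower there, by factors of 2.47, 1.56 and 2.12, beside 4.46%, 9.17% and 6.52% of all genes. Elf5 had 3 UMIs in scopolamine and 2 in tamsulosin nuclei of cluster 24 and none in control, where 3 UMIs would be 54.1 CPM. Leaving cluster 24 out of the duct-like class kept the counts of 5 acinar-leaning factors in each library.

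**Figure D3:**
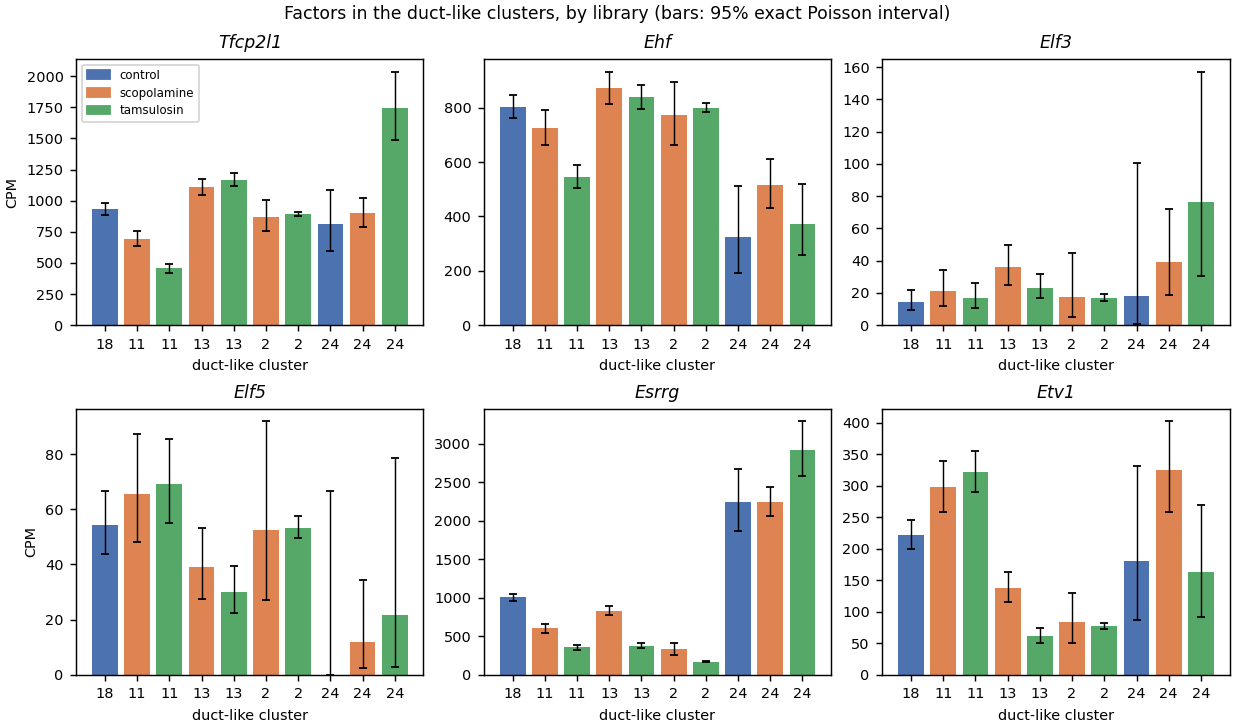
Level in CPM of 6 factors in each duct-like cluster, 1 bar per library with at least 20 nuclei, with the 95% exact Poisson interval. Esrrg reaches 2238 to 2920 CPM in cluster 24 and at most 1004 CPM in the other duct-like clusters, and Elf5 has no UMI in control cluster 24.

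Between the dry eye libraries, Esrrg was lower with tamsulosin in duct-like clusters 2, 11 and 13. The differences were 1.93-fold (1.51 to 2.43) in cluster 2, 1.70-fold (1.48 to 1.94) in cluster 11 and 2.18-fold (1.97 to 2.42) in cluster 13. Cluster 2 had only 59 nuclei in scopolamine. In cluster 24 Esrrg was 1.302-fold higher (1.12 to 1.51). The Esrrg call held under all 4 other settings in clusters 2 and 13 and was lost under 3 of 4 in cluster 11. The median gene of cluster 11 also stood lower by 0.44 on the log2 scale. Of the 4 settings, 1 changed only the amount added to CPM before the log, which enters no call. At 2-fold, which is not among the 4, the Esrrg call held only in cluster 13. Esrrg was lower with tamsulosin in other classes too, by 1.60-fold in macrophage-like, 1.44-fold in T or NK-like, 3.45-fold in fibroblast-like and 3.68-fold in myoepithelial-like nuclei. The part of RNA from outside the nucleus in these values was not tested.

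Etv1, Tfcp2l1 and Sox9 were each counted in 2 clusters. Etv1 was 2.24-fold lower with tamsulosin in cluster 13 and 1.98-fold lower in cluster 24, a call lost there in nuclei thinned to 1000 UMIs. Tfcp2l1 was 1.52-fold lower in cluster 11 and 1.94-fold higher in cluster 24, with ratios of 1.02 and 1.05 in clusters 2 and 13; the call in cluster 11 was lost under 2 of 4 settings. Sox9 went both ways, 1.67-fold higher in cluster 2 and 1.54-fold lower in cluster 11, calls lost under 1 and 3 of 4 settings. In all, 1 factor was higher and 1 lower in cluster 2, none higher and 3 lower in cluster 11, none higher and 2 lower in cluster 13, and 1 higher and 1 lower in cluster 24. All genes counted higher and lower came to 3.75% and 4.24% in cluster 2, 3.38% and 30.8% in cluster 11, 3.88% and 6.08% in cluster 13 and 4.82% and 6.19% in cluster 24.

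Acinar-like nuclei came mostly from different clusters in each library, so the ratios between libraries mix the make-up of the class with its levels. In acinar-like nuclei Spdef was the one factor counted lower in scopolamine than in control, at 33.1 against 56.3 CPM, 1.70-fold (1.54 to 1.87). There 20.8% of all genes were lower and the median gene stood at -0.29 on the log2 scale. Spdef was also 2.10-fold lower (1.34 to 3.34) in macrophage-like nuclei of the scopolamine library, and its acinar call was lost under 6 of 13 other settings. In macrophage-like nuclei Esrrg stood at 1755 CPM in control and 993 in scopolamine, Bhlha15 at 41.2 and 22.0 and Elf5 at 31.4 and 14.6. Tfcp2l1 was higher there in scopolamine, at 57.2 against 37.7 CPM. Elf3 there rested on 4 against 3 UMIs (2.66 against 2.09 CPM), too few to give a direction. In acinar-like nuclei Elf3 was counted higher, 1.501-fold (1.12 to 2.02) on 98 against 89 UMIs, where 4.10% of all genes were higher. Elf3 did not reach the 20 CPM floor of that share, and of the 9 factors that did, 0 were higher. The Elf3 call was lost under 2 of 13 other settings, among them leaving out the Kit and Car6 clusters described below. Creb3l1 was 1.32-fold lower and Esrrg 1.20-fold lower, while Tfcp2l1 was 1.38-fold and Etv1 1.17-fold higher. Tfcp2l1 was counted higher under 6 of 13 other settings, among them the scaling to the median gene, and reached 0.81 on the log2(CPM + 5) scale. Bhlha15, Sox9, Elf5 and Ehf differed by at most 1.07-fold.

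With tamsulosin against scopolamine, none of the 10 was counted in either direction in acinar-like nuclei, where 2.28% of all genes were higher and 1.09% lower. The median depth of these nuclei was 4143 UMIs in tamsulosin and 1240 in scopolamine. Among acinar-like nuclei of at most 3000 UMIs, 3 factors were counted higher: Bhlha15, Spdef and Elf5, at 0.57, 0.74 and 0.71 on the log2(CPM + 5) scale, against 0.41, 0.16 and 0.02 over all depths. Bhlha15 showed the largest ratio, 1.35-fold higher (1.24 to 1.48) at 73.1 against 54.0 CPM. Tfcp2l1 was 1.20-fold lower, Creb3l1 1.19-fold higher and Esrrg 1.06-fold lower. Against control, the tamsulosin library had 1 factor counted higher, Elf3 at 1.60-fold (1.18 to 2.18), and none lower, where 5.31% of all genes were higher and 33.3% lower. Elf3 did not reach the 20 CPM floor of these shares, and of the 9 factors that did, 0 were higher. That Elf3 call was lost under 3 of 13 other settings, among them leaving out the Kit and Car6 clusters described below. Bhlha15 was 1.44-fold higher, Spdef 1.49-fold lower and Esrrg 1.27-fold lower than in control, beside a median gene at -0.41 on the log2 scale. The Kit and Car6 clusters held 452, 429 and 710 of the 5171, 6065 and 2557 acinar-like nuclei in control, scopolamine and tamsulosin. The part of this make-up in the ratios between libraries was tried only by leaving those clusters out. The comparisons share libraries, so they are not independent of each other.

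**Figure D4:**
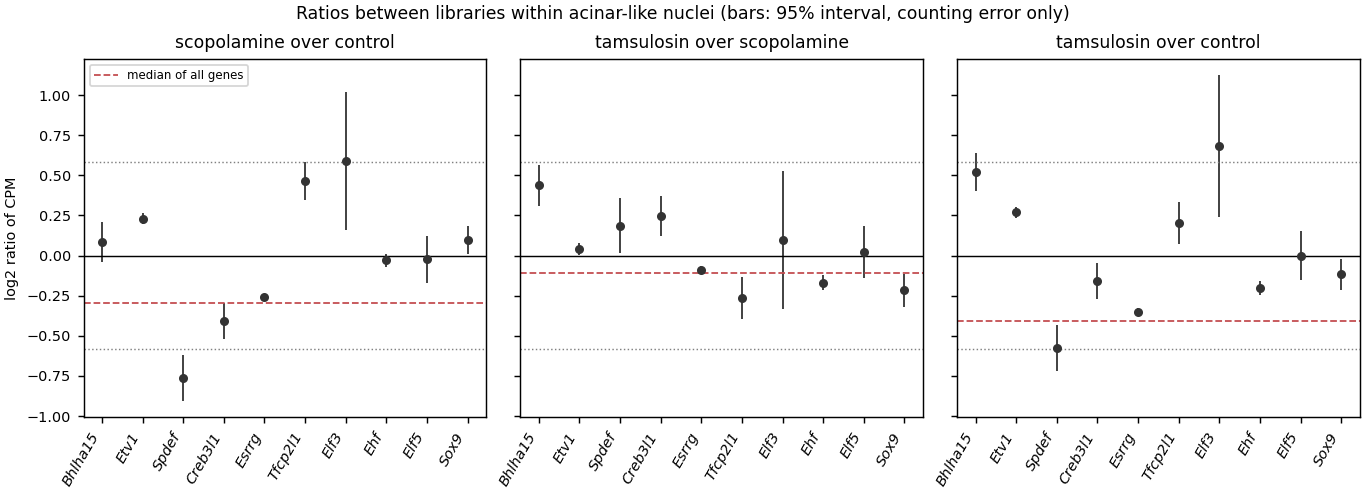
Ratios between libraries of each factor within acinar-like nuclei (log2 axis), with bars for the 95% interval, dotted lines at 1.5-fold and a dashed line at the median gene. Spdef lies below the lower line for scopolamine over control, and no factor passes a line for tamsulosin over scopolamine.

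Acinar-like nuclei were not uniform in these factors. In each library 1 cluster had Kit, which encodes a receptor tyrosine kinase, and Car6, a secreted carbonic anhydrase, among its 10 top genes. These were clusters 16, 17 and 10, nearly all of whose nuclei came from control, scopolamine and tamsulosin in that order. Together they held 452, 429 and 710 nuclei of these libraries. Tfcp2l1 was higher in these nuclei than in the other acinar-like nuclei of the same library, at 95.5 against 44.9 CPM in control, 200.1 against 58.8 in scopolamine and 146 against 40.7 in tamsulosin. The ratios were 2.13 (1.76 to 2.56), 3.40 (2.89 to 4.00) and 3.58 (3.09 to 4.13). Elf5 was higher as well, at 71.6 against 37.1, 115 against 34.4 and 93.3 against 30.5 CPM. Tfcp2l1 in them stayed well under its duct-like level. Some duct markers were higher too: of 23, 4, 5 and 10 were counted higher in these nuclei and 0, 1 and 1 lower. Most were not counted in either direction. The median duct marker was 1.10, 1.08 and 1.27 times as high, taken with an amount added to CPM. Shares for all genes are given with Etv1 below. The summed level of the duct markers was 900 against 411 CPM in control, 1176 against 689 in scopolamine and 2672 against 1277 in tamsulosin. Duct-like nuclei had 1665, 3820 and 9845 CPM, of which Ltf alone held 991, 2864 and 8472.5. Kit itself was higher in duct-like (199, 206 and 233 CPM) than in acinar-like nuclei (87.3, 63.9 and 101 CPM). The part of duct RNA in these values was not tested.

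Etv1 was also counted higher in the Kit and Car6 clusters of control (1153 against 567 CPM, 2.03-fold) and scopolamine (1056 against 684 CPM, 1.54-fold). In tamsulosin it was not counted (769 against 715 CPM, 1.08-fold). The median gene stood at -0.08, -0.10 and -0.48 on the log2 scale in these comparisons. Relative to it Etv1 stood at 1.10, 0.72 and 0.58. Creb3l1 was lower in all 3, at 53.7 against 78.6, 29.2 against 59.9 and 37.0 against 74.2 CPM, by factors of 1.46, 2.05 and 2.005, of which the last 2 were counted. Each of those calls was lost under 1 of 4 other settings. Esrrg was 1.63-fold lower in tamsulosin, a call lost under 2 of 4, and within 1.05-fold in the other libraries. In all 4, 4 and 3 factors were counted higher and 0, 1 and 2 lower, against 5.14%, 7.42% and 8% of all genes higher and 5.82%, 10.9% and 44.2% lower. Of the 9 factors that reached the 20 CPM floor of these shares, 4, 4 and 2 were higher. The median depth of these nuclei was 2580.5, 1925 and 2509 UMIs, against 2051, 1192 and 5379 in the others, and the part of depth in these values was not tested.

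**Figure D5:**
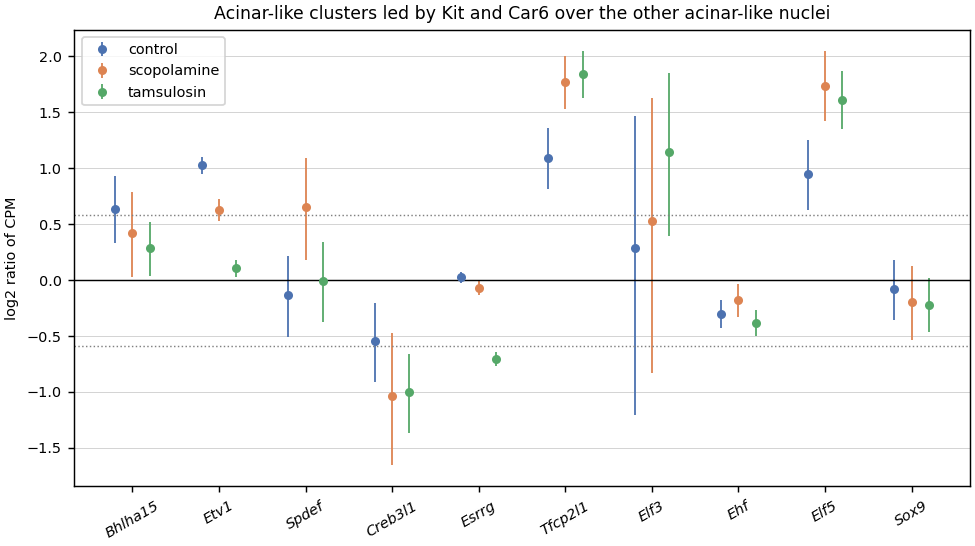
Ratio of CPM in the Kit and Car6 acinar-like clusters over the other acinar-like nuclei of the same library (log2 axis), with bars for the 95% interval and dotted lines at 1.5-fold. Tfcp2l1 and Elf5 lie above the upper line in all 3 libraries and Creb3l1 lies below 0 in all 3.

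Depth also separated acinar-like clusters within a library. In scopolamine, cluster 5 (median 5402 UMIs) held more Creb3l1 (1.89-fold), Spdef (1.87-fold), Esrrg (1.75-fold), Etv1 (1.57-fold) and Ehf (1.52-fold) than cluster 0 (1086 UMIs), 5 factors where 32.6% of all genes were higher. The median gene stood at 0.41 on the log2 scale there, and relative to it the 5 lay between 0.18 and 0.43, short of 1.5-fold. In control, cluster 8 (9456 UMIs) differed from cluster 1 (1843 UMIs) in 1 factor, Spdef, 1.67-fold higher, where 2.03% of all genes were.

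Other lineage factors were taken from a list of 48, of which 33, 35 and 32 reached 5 CPM in either class in the control, scopolamine and tamsulosin libraries. Of these, 4, 4 and 5 were higher in acinar-like and 12, 14 and 15 in duct-like nuclei. At the same floor, 13.6%, 10.8% and 16.5% of all genes were acinar-leaning and 19.8%, 25.1% and 25.7% duct-leaning, the shares against which the shorter lists below also stand. The median log2 ratio of acinar over duct was -0.33, -0.40 and -0.42 for the listed factors at that floor. It was 0.01, -0.10 and -0.05 for all genes at the higher floor of 20 CPM on average over both classes. On the acinar side were Foxa1, a pioneer factor of glandular epithelia, with ratios of 1.97, 2.67 and 4.22, and Xbp1, a factor of the unfolded protein response, with 2.18, 1.86 and 1.94. On the duct side were Barx2, a homeobox factor of lacrimal gland development, at 12.7, 15.7 and 10.7, Runx1 at 4.51, 5.29 and 8.17 and Klf5 at 5.90, 5.94 and 5.61. Barx2 was thus close to Tfcp2l1 in the size of its ratio, at 590, 603 and 614 CPM in duct-like and 46.4, 38.5 and 57.3 CPM in acinar-like nuclei.

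Genes linked to single factors came from shorter lists. Of 8 secretory genes linked to BHLHA15, 5, 6 and 6 reached 5 CPM, 3, 4 and 4 were acinar-leaning and 0, 1 and 0 duct-leaning. Gjb1, a gap junction protein, had ratios of 4.81, 4.08 and 6.75 towards acinar-like nuclei. Cpe, carboxypeptidase E, leaned 2.71-fold towards duct-like nuclei in scopolamine and 3.17-fold towards acinar-like nuclei in tamsulosin. Of 8 SPDEF-linked genes, 2, 1 and 1 reached that level, 1 acinar-leaning in each library and 1 duct-leaning in control. Agr2, a protein disulfide isomerase of mucous cells, was 2.23, 2.31 and 1.91 times as high in acinar-like nuclei.

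Of 13 genes of the fibroblast growth factor and ETV programme, 7, 8 and 7 reached 5 CPM, with 1 acinar-leaning and 2 duct-leaning in each library. The receptors parted: Fgfr1 was 2.23, 1.56 and 5.13 times as high in acinar-like nuclei, beside Etv1, and Fgfr2 was 2.99, 2.60 and 2.14 times as high in duct-like nuclei. Il17rd, a feedback inhibitor of this signalling, was duct-leaning at 18.4, 23.2 and 24.4. Spred2, another inhibitor, had acinar-leaning ratios of 1.24, 1.27 and 1.35 that were not counted. Of 13 Notch pathway genes, 9, 10 and 9 reached 5 CPM, 1 acinar-leaning and 5, 6 and 5 duct-leaning in each library. Maml2, a Notch coactivator, was 16.1, 16.0 and 22.6 times and the receptor gene Notch3 14.9, 8.72 and 7.30 times as high in duct-like nuclei, while Maml3 leaned acinar at 1.90, 2.09 and 2.86. The ligand gene Jag1 was not counted in any library.

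Likeness of pattern was described by Pearson's r of log2(CPM + 5) over 18 points, 6 classes in 3 libraries that share depth and free RNA, among 5997 genes. Tfcp2l1 was most like Greb1l (0.99), Acsm1 (0.98) and Itprid1 (0.98), and Elf3 most like Dach1 (0.95), Klf5 (0.94) and Samd12 (0.94). Etv1 was most like Prlr (0.98), the prolactin receptor gene, which is in the acinar marker list, Slco1a6 (0.97) and Esp3 (0.96), and Esrrg most like Cecr2 (0.98), Erbb4 (0.98) and Kcnn2 (0.97). Bhlha15 was most like Tram1 (0.93) and Spcs2 (0.91), both of protein entry into the endoplasmic reticulum, and Stk33 (0.88). Creb3l1 was most like Prrc1 (0.94), Mia3 (0.94) and Uso1 (0.93), of which the latter pair serve transport between the endoplasmic reticulum and the Golgi. The nearest genes to Spdef were Unc13b (0.97), Wdr59 (0.96) and Vwa8 (0.96), to Elf5 Rnf128 (0.95), Usp43 (0.94) and Spint2 (0.93), to Ehf Atp11a (0.99), Usp43 (0.98) and Tbc1d4 (0.98), and to Sox9 Rnf103 (0.92), Slc39a8 (0.90) and Immp1l (0.90). Among the 10 factors themselves the closest pairs were the neighbours Elf5 and Ehf (0.92), Etv1 and Esrrg (0.91) and Elf3 and Tfcp2l1 (0.90).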

How the data were processed

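The authors deposited filtered gene by barcode matrices of raw UMI counts (unit counts), 1 per library; per the submitters' processing notes they used Cell Ranger 5.0.0 and mm10. Barcodes numbered 7253, 10024 and 12322 and UMIs 33500727, 35237256 and 57969348 in the control, scopolamine and tamsulosin libraries. Nuclei with at least 500 UMIs, 300 genes and at most 5% mitochondrial UMIs were kept. Scrublet scored doublets; its own call marked under 0.5% in each library, so the top scores were removed at 0.8% per 1000 nuclei (414, 801 and 1156 nuclei). Clustering used scanpy 1.11.5, 2000 variable genes, 30 principal components and Leiden resolution 1. Cluster names came from marker lists, with naming thresholds set after clusters were seen. UMIs were summed per class and library. Poisson, Clopper-Pearson and conditional binomial intervals at 95% cover counting error only. The 10 factors and all lists were chosen with earlier results of these data known. Named genes are all 10 factors, the 3 most acinar-leaning and 3 most duct-leaning other lineage factors, 2 per side of other lists, and the 3 genes most alike each factor. A gene that this rule names is not reported here. On simulated counts, 97.0%, 98.5% and 100% of genes with a 2-fold change were called for acinar over duct in control (5956 genes), scopolamine (5593) and tamsulosin (5643). Of genes with a 1.3-fold change, 7.04%, 5.71% and 1.56% were called. These counts held counting error only, for genes of at least 20 CPM. They do not cover variation between nuclei, clusters or animals.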

Additional observations from a re-analysis of the deposited data

How the results depend on the processing

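The settings tried were 11 planned and 3 added ones, the added ones chosen after seeing the data (without the Kit and Car6 clusters, without cluster 24, acinar-like nuclei of at most 3000 UMIs). Losses of a call given as a number of settings leave out the 2-fold setting. They include a setting that adds 1 in place of 5 CPM before the log, which enters no call. Settings that change only the duct-like class cannot alter comparisons between acinar-like nuclei. Of 288 counts 229 stayed within 1.5 times and 59 did not; 446 of 448 called ratios kept their direction. The acinar over duct calls of Bhlha15, Etv1, Esrrg and Tfcp2l1 held under all settings run in all libraries. The ratio of acinar over duct changed sign for Spdef in control, to -0.014 on the log2(CPM + 5) scale with doublets kept and -0.042 with at most 3000 UMIs. Creb3l1 and Ehf in control lost their calls under 3 of 12 settings, and Spdef under 5 of 12 in control and 4 of 13 in scopolamine.

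Counts that moved follow; for each the cause was not tested unless the setting's own construction gives it. At 2-fold, duct-leaning factors in tamsulosin were 2, and the acinar-like library counts were 0 higher and 0 lower for scopolamine over control and 0 higher for tamsulosin over control. At that fold clusters 2 and 24 had 0 higher and 0 lower and cluster 11 had 0 lower, acinar-leaning other lineage factors were 1, 2 and 2 and duct-leaning ones in scopolamine 9. Without the 50 most abundant genes, factors higher in scopolamine than control were 2 and lower 0, higher in tamsulosin than control 4, lower in cluster 11 0, acinar-leaning other lineage factors in control 7 and duct-leaning ones in scopolamine 9. Relative to the median gene, they were 2 higher and 0 lower for scopolamine over control, 4 higher for tamsulosin over control and 0 lower in cluster 11. At Leiden resolution 2, acinar-leaning factors in control were 3, factors higher in scopolamine than control 2, and other lineage factors in control 1 acinar-leaning and 7 duct-leaning. With at most 3000 UMIs, tamsulosin over control gave 4 higher and 1 lower, tamsulosin over scopolamine 3 higher and scopolamine over control 0 lower. With at least 1000 UMIs and 500 genes, scopolamine over control gave 2 higher and 0 lower. With at least 1600 UMIs, acinar-leaning factors in control were 3, scopolamine over control gave 2 higher and 0 lower, tamsulosin over control 1 lower, and acinar-leaning other lineage factors in control were 1. With doublets kept, acinar-leaning factors in control were 3, scopolamine over control gave 2 higher, tamsulosin over control 2 higher and 1 lower, and acinar-leaning other lineage factors were 1 in control and 3 in tamsulosin. With only duct-like clusters that had a duct marker among their 10 top genes, duct-leaning other lineage factors in scopolamine were 8; control had no such cluster of at least 20 nuclei and gave no value. With low-complexity clusters counted as acinar-like, scopolamine over control gave 0 higher and 2 lower, tamsulosin over control 0 higher and 4 lower, and other lineage factors in tamsulosin were 3 acinar-leaning and 23 duct-leaning. With nuclei thinned to 1000 UMIs, tamsulosin over control gave 0 higher, scopolamine over control 0 lower, cluster 2 0 higher, cluster 11 1 lower, cluster 24 0 lower, and acinar-leaning other lineage factors in control were 2. Without the Kit and Car6 clusters, scopolamine over control and tamsulosin over control gave 0 higher.

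Each group was 1 library, so differences between libraries cannot be told apart from differences between animals, sorts or preparations. Comparisons of clusters by number were run only under the 4 settings that keep the clusters, and at 2-fold. Empty droplets were not analysed here, so free RNA could be set only against macrophage-like and T or NK-like nuclei. Elf3 rests on under 100 UMIs in acinar-like nuclei of each library, and cluster 24 on 21 and 22 nuclei in control and tamsulosin. No paired analysis was possible because each group had 1 library and the labels give no shared replicate numbers.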
